A study of Homo sapiens with 2 samples.

Results

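A set of 51 genes of glucose metabolism was followed in the deposited RNA-seq tables: the carriers that bring glucose into the cell, the isozymes of glycolysis, lactate handling, gluconeogenesis and glycogen turnover, and ketohexokinase of the fructose branch. The genes were chosen by symbol, and all 51 were found among the 57820 genes listed. The series compared 2 human liver cancer lines, both labelled wild type and grown in DMEM with fetal bovine serum, and it holds 1 poly(A)-selected, stranded library for each. HepG2 is labelled as hepatocellular carcinoma and SKHEP1 as endothelial cells. Each group is thus 1 library of 1 established line, no difference has a replicate check, and no p-value is given.

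Glucose enters cells through facilitative carriers and is split by glycolysis to pyruvate, which is then reduced to lactate or oxidised in mitochondria. Liver cells can also run the path backwards, making glucose from lactate and amino acids with a small set of gluconeogenic enzymes, and they store and release it as glycogen. Several steps are catalysed by isozymes from separate genes, and adult hepatocytes are known for a particular set: the carrier GLUT2 (SLC2A2), the regulatory protein GCKR, the L/R pyruvate kinase (PKLR), and the liver forms of phosphofructokinase, glycogen synthase and glycogen phosphorylase. Proliferating and many tumour cells mostly use GLUT1 (SLC2A1), hexokinases 1 and 2, aldolase A and the M-type pyruvate kinase (PKM).

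The SKHEP1 library held 19940557 expected counts (estimated reads per gene, which need not be whole) and the HepG2 library 22477757, and 13831 and 13405 genes reached 10 counts. Levels are given in expected counts and in deposited TPM (transcripts scaled to a fixed total per library, a value per length). A ratio between the lines is that of CPM (library-scaled counts) on normalised library sizes, with a 95% interval in brackets that covers counting error only. No molecular identifiers are named in the sources used here, and without them PCR copies make such intervals too narrow. For a count of 0, a floor of 3 counts was used, or 0.148 CPM in SKHEP1 and 0.135 CPM in HepG2. The 95% upper limit of a count of 0 is higher, at 0.183 and 0.166 CPM. Where 1 line was at 0 counts, the ratio was taken against the floor and is given as at least that fold. Such a fold is a convention and not a 95% limit. For PKLR, given as at least 140-fold, the lower 95% limit is 113-fold. All 10 hepatocyte markers checked had at least 10 counts in HepG2, with a summed level of 54344 TPM, against 95.5 TPM in SKHEP1, where 9 of the 10 were at 0. The endothelial label of SKHEP1 was not borne out by its defining markers: of 10, KDR, CLDN5, EMCN and ERG were at 0, CDH5 had 1 count and VWF had 4, and ENG carried nearly all of the summed 54.8 TPM, against 7.58 TPM in HepG2. Of 9 mesenchymal markers, 8 had at least 10 counts in SKHEP1 and 1 in HepG2, with sums of 8475 and 17.3 TPM. The markers of skeletal muscle summed to 2.76 and 24.96 TPM and those of blood to 2.54 and 3.40 TPM, in SKHEP1 and HepG2 respectively. The part of these marker differences in the results was not tested. Each library is bulk RNA of 1 line, so fewer cells with an RNA and less of it per cell cannot be told apart.

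The set held 20 genes at least 4-fold apart between the lines. By choice, 39 of its 51 genes belong to isozyme families, so a majority of isozymes among the 20 is not a result. Abundant enzymes lay on both sides of the limit: GPI, ENO1 and ALDOA differed little, while PKM and LDHB passed it. Of the 51 genes, 45 had at least 10 counts in either line. In SKHEP1, 6 of these exceeded HepG2 by at least 4-fold, namely HK1, PFKM, PFKP, PFKFB3, PKM and LDHB. The share of 13.3% was set beside 16.5% of all 15436 genes compared. A further 14 were at least 4-fold higher in HepG2, which is 31.1% of the 45 beside 13% of all genes: SLC2A2, SLC2A3, SLC2A4, GCKR, PFKFB1, ALDOC, ENO3, PKLR, LDHD, PC, PCK1, PCK2, G6PC and KHK. The other 25 (55.6%, beside 70.5% of all genes) lay within 4-fold. SLC2A1, SLC2A10, SLC37A4 and PYGL lay just under that limit, at 3.72-fold to 3.76-fold, and PKM, LDHD and PC just over it, at 4.24-fold to 4.46-fold. The median log2 ratio of HepG2 over SKHEP1 was 0.33 over the 45 genes and -0.03 over all genes compared. An interval by order statistics for the 45 genes ran from -0.09 to 1.91. That interval treats the chosen genes as independent draws. Genes are not replicates of the lines, so the interval cannot test a difference between the lines. The median of the set was 0.21 at a minimum of 50 counts. A single gene of the set, LDHB, had at least 10 counts in SKHEP1 and under 3 in HepG2, a pattern held by 9.27% of all genes, and PFKFB1, PKLR, PCK1 and G6PC showed the opposite pattern, held by 6.84%. Of all 51 genes, 38 reached 10 counts in SKHEP1 and 44 in HepG2.

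**Figure D1:**
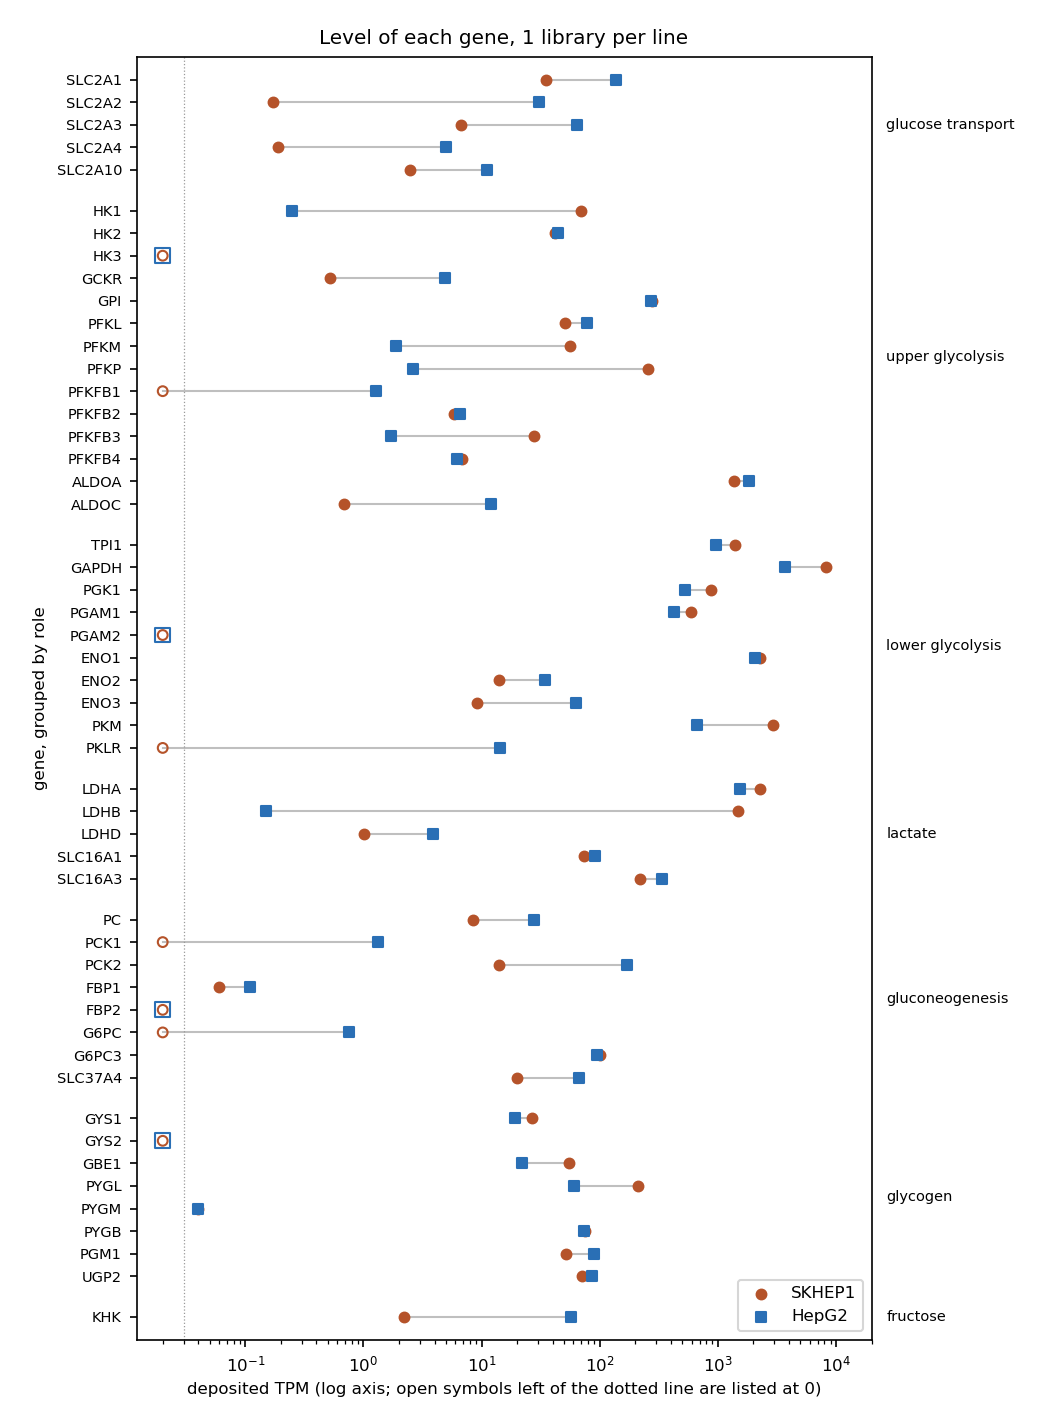
Deposited TPM of the 51 genes (x axis, log scale) in SKHEP1 (circles) and HepG2 (squares), 1 library each, with genes grouped by role on the y axis, a grey line joining the 2 values and open symbols for values listed at 0. The symbols nearly coincide for GPI, ENO1, PYGB and G6PC3 and lie far apart for LDHB (1468 against 0.15 TPM), HK1 (69.3 against 0.25) and SLC2A2 (0.17 against 30.9).

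The 5 glucose carriers of the set were each higher in HepG2. SLC2A1, the widespread basal carrier GLUT1, had 1271 counts (35.4 TPM) in SKHEP1 and 5234 counts (137 TPM) in HepG2, 3.75-fold higher in HepG2 (3.53 to 3.99). SLC2A2, the low-affinity liver and beta cell carrier GLUT2, had 4 counts (0.17 TPM) in SKHEP1 and 1331 counts (30.9 TPM) in HepG2. This was a 303-fold difference in CPM (118 to 1114), and a 182-fold difference in TPM. GLUT2 mRNA was thus near the floor in SKHEP1 and well detected in HepG2. SLC2A3, the high-affinity carrier GLUT3, had 269 counts in SKHEP1 and 3287 in HepG2 (6.65 and 64.7 TPM), 11.1-fold higher in HepG2 (9.83 to 12.7). Its value is uncertain, since SLC2A14, a near-identical copy, shares reads with it and was listed at 0 counts in SKHEP1 and 309 in HepG2. SLC2A4, the insulin-responsive carrier GLUT4, had 4 and 226 counts (0.19 and 5.01 TPM), 51.5-fold higher in HepG2 in CPM (19.8 to 190) and 26.4-fold in TPM. SLC2A10, the carrier GLUT10, had 106 and 433 counts (2.48 and 11.03 TPM), 3.72-fold higher in HepG2 (3.002 to 4.65), and 4-fold or more with TPM values. Of the 5 carriers, 3 were at least 4-fold higher in HepG2, beside 13% of all genes, and none in SKHEP1, beside 16.5%. The summed level of the 5 was 44.9 TPM in SKHEP1 and 248 TPM in HepG2, 5.53-fold higher in HepG2 (5.25 to 5.82). SLC2A1 made up 78.9% of that sum in SKHEP1 (76.9 to 80.8) and 55.1% in HepG2 (54.1 to 56.0), while SLC2A2 made up 0.378% and 12.4%, and SLC2A3 14.8% and 26.0%.

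Hexokinases, which trap glucose as glucose 6-phosphate, differed in the level of HK1, while HK2 was present in both lines. HK1, the widely expressed isozyme, had 2520 counts (69.3 TPM) in SKHEP1 and 11 counts (0.25 TPM) in HepG2, 252-fold higher in SKHEP1 (140 to 505). HK2, an inducible isozyme often abundant in tumour cells, was nearly level, at 2845 counts (42.1 TPM) in SKHEP1 and 3396 counts (44.0 TPM) in HepG2, a ratio of 1.09 (1.03 to 1.14). HK1 therefore took 62.2% of hexokinase TPM in SKHEP1 (60.9 to 63.5) and 0.565% in HepG2 (0.282 to 1.01), where HK2 was 176 times as abundant per length. By expected counts, which are not per length, HK2 was the larger of the pair in SKHEP1 as well, with HK1 at 47.0%. HK3 was at 0 in both libraries. GCKR, a regulatory protein of hepatocyte nuclei that controls glucose phosphorylation, had 5 counts in SKHEP1 and 96 in HepG2 (0.52 and 4.93 TPM), 17.5-fold higher in HepG2 (7.24 to 55.1) and 9.48-fold in TPM. HKDC1, a further hexokinase outside the set, had 519 and 659 counts, and adding it lowered the share of HK1 in SKHEP1 to 55.9% without changing the leading isozyme in either line.

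The phosphofructokinases, which form fructose 1,6-bisphosphate at the main control point of glycolysis, differed in which isozyme led. PFKP, the platelet type, had 7579 counts (254 TPM) in SKHEP1 and 43 counts (2.61 TPM) in HepG2. PFKP was 194-fold higher in SKHEP1 in CPM (144 to 268) and 97.5-fold in TPM, and the effective length given for HepG2 was 0.488 times that for SKHEP1. PFKM, the muscle type, had 1807 and 51 counts (55.6 and 1.88 TPM), 38.9-fold higher in SKHEP1 (29.5 to 52.4). PFKL, the liver type, went the other way by a small amount, with 1698 and 2964 counts (51.2 and 77.9 TPM), 1.59-fold higher in HepG2 (1.497 to 1.69). As a share of phosphofructokinase TPM, PFKL was 14.2% in SKHEP1 (13.5 to 14.8) and 94.6% in HepG2 (93.4 to 95.6), with PFKP at 70.4% and 3.17% and PFKM at 15.4% and 2.28%. The liver type was thus the main one in HepG2, at a level 1.59-fold that in SKHEP1, and the other two were the ones that differed widely. Their sum was 361 TPM in SKHEP1 and 82.4 TPM in HepG2, 4.38-fold higher in SKHEP1 (4.21 to 4.56).

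The bifunctional enzymes PFKFB1 to PFKFB4 make and break fructose 2,6-bisphosphate, the activator of phosphofructokinase. PFKFB3, the form with the strongest kinase activity, had 1352 counts (27.98 TPM) in SKHEP1 and 98 counts (1.71 TPM) in HepG2, 15.1-fold higher in SKHEP1 (12.3 to 18.8). PFKFB1, the form first described in liver, had 0 and 27 counts (1.27 TPM in HepG2), at least 8.20-fold higher in HepG2. PFKFB2 had 464 and 507 counts and PFKFB4 had 238 and 220 counts, with ratios of 1.00 (0.88 to 1.14) and 1.19 (0.98 to 1.43) whose intervals include equal levels. PFKFB3 made up 68.9% of the family's TPM in SKHEP1 (66.9 to 70.8) and 10.9% in HepG2 (8.95 to 13.2). In HepG2, PFKFB2 at 41.7% (38.3 to 45.1) and PFKFB4 at 39.3% (35.6 to 43.0) overlapped in their intervals, so their order there is not resolved.

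Among enzymes at steps served mainly by a single gene, GPI, ALDOA, TPI1, GAPDH, PGK1, PGAM1 and ENO1 had ratios from 1.03-fold to 2.17-fold. PKM, which also supplied nearly all of its step, differed more, by 4.24-fold. Glucose 6-phosphate isomerase (GPI) had 7413 and 7885 counts (278 and 274 TPM), a ratio of 1.03 whose interval (1.00 to 1.07) includes equal levels. Aldolase A (ALDOA) was 1.55-fold higher in HepG2 (1.52 to 1.59), at 1370 TPM in SKHEP1 and 1835 TPM in HepG2. The other four with a difference over 1.3-fold were higher in SKHEP1: TPI1, the triose isomerase, by 1.40-fold, PGK1, the first ATP-forming kinase of the path, by 1.66-fold, PGAM1, the phosphoglycerate mutase, by 1.35-fold, and GAPDH, which forms NADH, by 2.17-fold (2.15 to 2.19). GAPDH had 125191 counts (8203 TPM) in SKHEP1, rank 2 by TPM among all genes, and 63330 counts (3685 TPM) in HepG2, rank 20. ENO1, the common enolase, was nearly level at 2263 and 2058 TPM. Reads of TPI1, PGAM1, ENO1, GPI and LDHA were divided by the authors' counting in at least 1 library, as their non-whole counts show, so their values are less certain than the counting intervals. ALDOC, the brain-type aldolase, had 13 counts in SKHEP1 and 270 in HepG2 (0.69 and 12.1 TPM), 18.9-fold higher in HepG2 (10.9 to 35.99), yet it remained 0.652% of aldolase TPM there. PGAM2, the muscle mutase, was at 0 in both.

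The minor enolases were both higher in HepG2. ENO2, the neuronal type, had 358 and 970 counts (14.1 and 34.2 TPM), 2.47-fold higher in HepG2 (2.18 to 2.79). ENO3, the muscle type, had 102 and 857 counts (9.22 and 63.5 TPM), 7.65-fold higher in HepG2 (6.23 to 9.49). Even so ENO1 held 99.0% of enolase TPM in SKHEP1 and 95.5% in HepG2, with ENO3 at 0.403% and 2.95%.

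Pyruvate kinase, the last ATP-forming step, showed opposite directions for its genes. PKM had 76722 counts (2921 TPM, rank 40) in SKHEP1 and 19875 counts (671 TPM, rank 197) in HepG2, 4.24-fold higher in SKHEP1 (4.17 to 4.31). PKLR, the liver and red cell gene, had 0 counts in SKHEP1 and 461 counts (14.4 TPM) in HepG2, at least 140-fold higher in HepG2. PKLR was thus detected in HepG2 alone, but PKM was 46.5 times as abundant there per length, and PKLR made up 2.10% of pyruvate kinase TPM (1.92 to 2.30). Gene totals do not separate the alternatively spliced M1 and M2 products of PKM. Of 9 lower glycolysis genes compared, 1 passed 4-fold towards SKHEP1 and 2 towards HepG2, and of 13 upper glycolysis genes 4 and 3 did, beside 16.5% and 13% of all genes. For lower glycolysis these counts of 1 and 2 are near those shares.

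**Figure D2:**
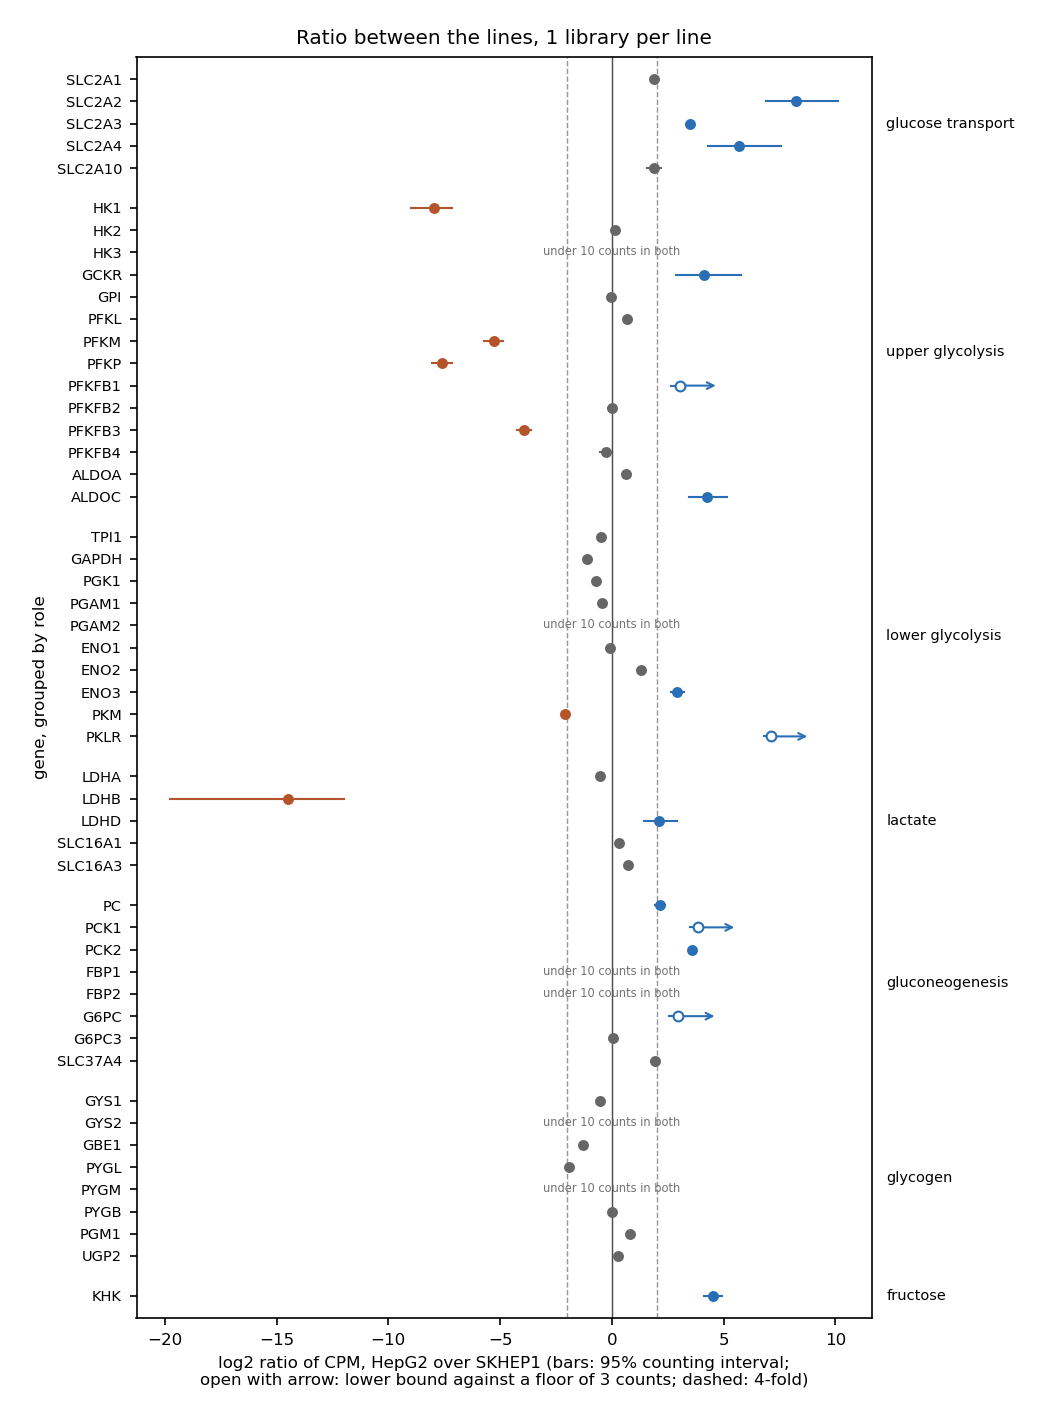
Log2 ratio of CPM, HepG2 over SKHEP1 (x axis), for each gene by role (y axis). Bars are 95% counting intervals and dashed lines mark 4-fold. Open symbols with arrows are ratios against a floor of 3 counts, given as at least that fold. LDHB, HK1 and PFKP lie furthest to the left and SLC2A2 furthest to the right, and all 6 glycogen genes compared lie between the dashed lines.

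Lactate dehydrogenase, which interconverts pyruvate and lactate, held the widest difference of the set. LDHB, the heart-type subunit, had 20639 counts (1468 TPM, rank 116 of all genes) in SKHEP1 and 1 count (0.15 TPM) in HepG2. The ratio was 22660-fold in CPM (4067 to 895056) and 9787-fold in TPM, and with 1 count its size is hardly resolved beyond the lower limit. LDHA, the muscle-type subunit, had 42571 counts (2291 TPM) in SKHEP1 and 32156 counts (1538 TPM) in HepG2, 1.45-fold higher in SKHEP1 (1.43 to 1.47). LDHB was therefore 39.1% of L-lactate dehydrogenase TPM in SKHEP1 (38.7 to 39.5) and 0.00975% in HepG2 (0.000247 to 0.0543), so that HepG2 mRNA was for the A subunit nearly alone. Their sum was 2.44-fold higher in SKHEP1 (2.41 to 2.48), at 3759 against 1538 TPM. LDHD, the mitochondrial D-lactate dehydrogenase, had 20 and 96 counts (1.01 and 3.85 TPM), 4.37-fold higher in HepG2 (2.68 to 7.48), and it was under 4-fold with TPM values. The lactate carriers were present in both lines. SLC16A1, the carrier MCT1, had 3503 and 4831 counts (74.0 and 90.5 TPM), 1.26-fold higher in HepG2 (1.20 to 1.31). SLC16A3, the carrier MCT4 that exports lactate from glycolytic cells, had 3773 and 6833 counts (219 and 337 TPM), 1.65-fold higher in HepG2 (1.58 to 1.72).

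**Figure D3:**
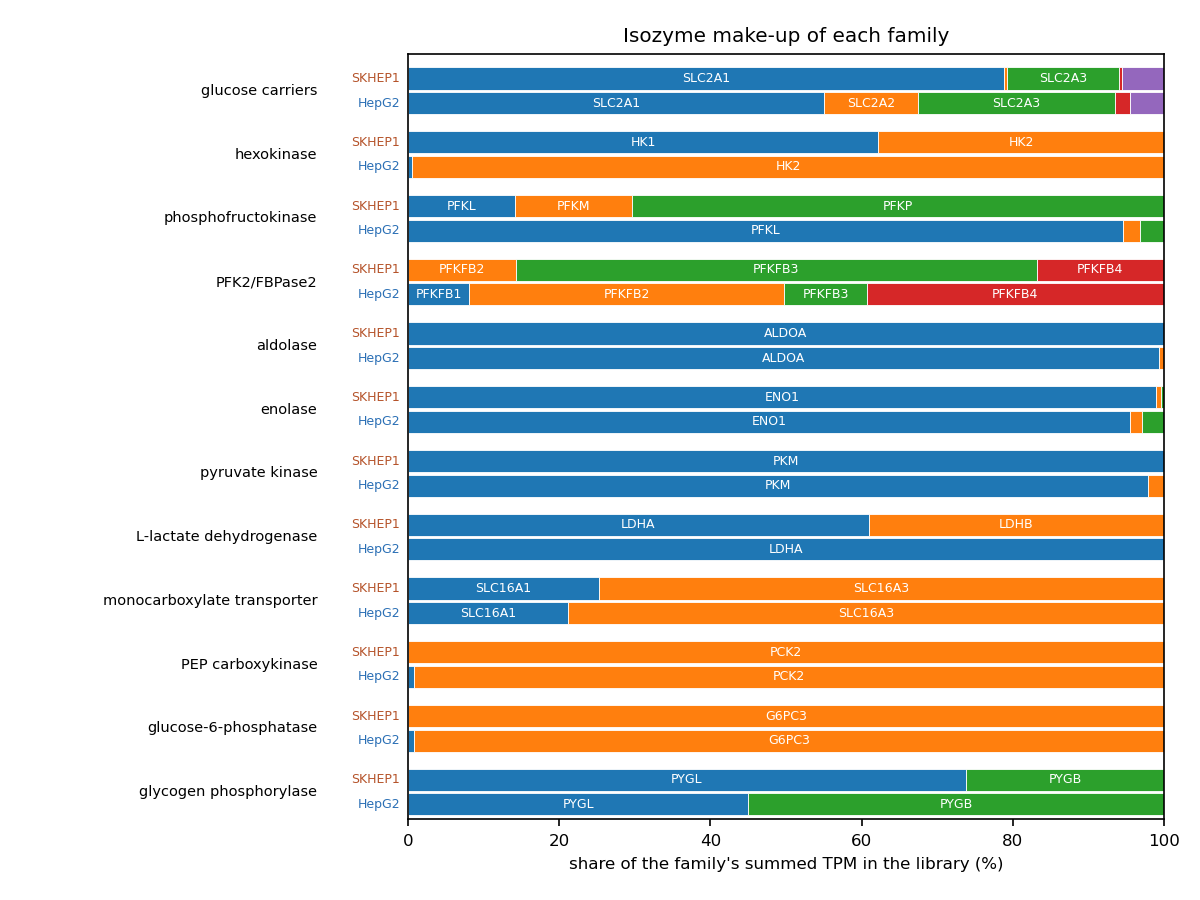
Share of each isozyme in the summed TPM of its family (x axis, %) in 12 families (y axis). Each family has 1 bar for SKHEP1 and 1 for HepG2, with names on segments over 8%. Unlabelled glucose carrier segments are SLC2A2 in SKHEP1 (orange), and SLC2A4 (red) and SLC2A10 (purple) in both lines. Other thin segments are isozymes named in the text. The leading isozyme changes from HK1 to HK2, from PFKP to PFKL, from PFKFB3 to PFKFB2 (not resolved from PFKFB4) and from PYGL to PYGB, and LDHB fills 39.1% of its bar in SKHEP1 and 0.00975% in HepG2.

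Of the 6 gluconeogenic genes compared, 5 were higher in HepG2 and G6PC3 was level, while PCK1, FBP1 and G6PC, the genes typical of liver, had under 50 counts in either line. Pyruvate carboxylase (PC), the entry enzyme, had 193 and 945 counts (8.54 and 27.8 TPM), 4.46-fold higher in HepG2 (3.82 to 5.23) and under 4-fold with TPM values. PCK2, the mitochondrial phosphoenolpyruvate carboxykinase, had 376 counts (14.2 TPM) in SKHEP1 and 4991 counts (170 TPM) in HepG2, 12.1-fold higher in HepG2 (10.9 to 13.5). PCK1, the hormone-controlled cytosolic enzyme, had 0 counts in SKHEP1 and 48 counts (1.33 TPM) in HepG2, at least 14.6-fold higher in HepG2, where PCK2 was 127 times as abundant per length. Fructose-bisphosphatase, the step opposite phosphofructokinase, was all but undetected: FBP1, the liver gene, had 1 count in SKHEP1 and 2 in HepG2, and FBP2, the muscle gene, had 0 in both. G6PC, the liver and kidney glucose-6-phosphatase that releases free glucose, had 0 counts in SKHEP1 and 26 counts (0.76 TPM) in HepG2, at least 7.89-fold higher in HepG2. G6PC3, the widely expressed phosphatase, was level at 101 and 94.9 TPM, a ratio of 1.02 (0.95 to 1.10), and made up 99.2% of the pair in HepG2. SLC37A4, which carries glucose 6-phosphate into the endoplasmic reticulum, had 367 and 1515 counts (20.1 and 66.5 TPM), 3.76-fold higher in HepG2 (3.35 to 4.23). In all, 4 of the 6 genes compared were at least 4-fold higher in HepG2, beside 13% of all genes, and none in SKHEP1, beside 16.5%. PFKFB1, PCK1 and G6PC, each under 50 counts in HepG2, leave the comparison at a minimum of 50 counts.

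All 6 glycogen genes compared lay within 4-fold, beside 70.5% of all genes. Glycogen synthase was the muscle-type gene in both lines: GYS1 had 1091 and 818 counts (26.9 and 19.4 TPM), 1.46-fold higher in SKHEP1 (1.34 to 1.61), while GYS2, the liver gene, had 0 counts in both. GBE1, the branching enzyme, was 2.43-fold higher in SKHEP1 (2.23 to 2.64), at 54.6 against 21.8 TPM. Liver glycogen phosphorylase (PYGL) had 6292 counts (212 TPM) in SKHEP1 and 1841 counts (60.1 TPM) in HepG2, 3.75-fold higher in SKHEP1 (3.56 to 3.95). PYGB, the brain form, was level at 75.2 and 73.4 TPM, and PYGM, the muscle form, had 1 count in each library. The liver form was therefore 73.8% of phosphorylase TPM in SKHEP1 (73.0 to 74.6) and 45.0% in HepG2 (43.6 to 46.4), the lower share being in the line with the hepatocyte markers. PGM1, which links glucose 1-phosphate and glucose 6-phosphate, was 1.77-fold higher in HepG2 (1.66 to 1.89), and UGP2, which makes UDP-glucose, 1.23-fold (1.15 to 1.31). KHK, ketohexokinase, which commits fructose to breakdown in liver, had 57 counts (2.20 TPM) in SKHEP1 and 1422 counts (56.9 TPM) in HepG2, 22.7-fold higher in HepG2 (17.4 to 30.2).

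Across the 15 families with at least 2 isozymes, the isozyme of highest TPM differed between the lines in 4 and was shared in 11. PFKFB2 was not resolved from PFKFB4 in HepG2. The 11 include fructose-bisphosphatase, which was all but undetected. They also include phosphoglycerate mutase and glycogen synthase, where PGAM2 and GYS2 were at 0 in both lines. Family totals were lower in HepG2 for 10 and higher for 5, a split that includes fructose-bisphosphatase with 1 and 2 counts. The summed carboxykinase level was 12.04-fold higher in HepG2 (10.8 to 13.4), the widest difference among totals, followed by the glucose carriers. Hexokinase summed to 111 TPM in SKHEP1 and 44.3 TPM in HepG2, 2.52-fold higher in SKHEP1, and pyruvate kinase to 2921 and 686 TPM, 4.26-fold. Totals of enolase (2286 and 2155 TPM) and glucose-6-phosphatase (101 and 95.6 TPM) were nearly equal. All 51 genes together took 2.32% of TPM in SKHEP1 and 1.37% in HepG2, of which GAPDH alone was 35.4% and 26.9%.

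**Figure D4:**
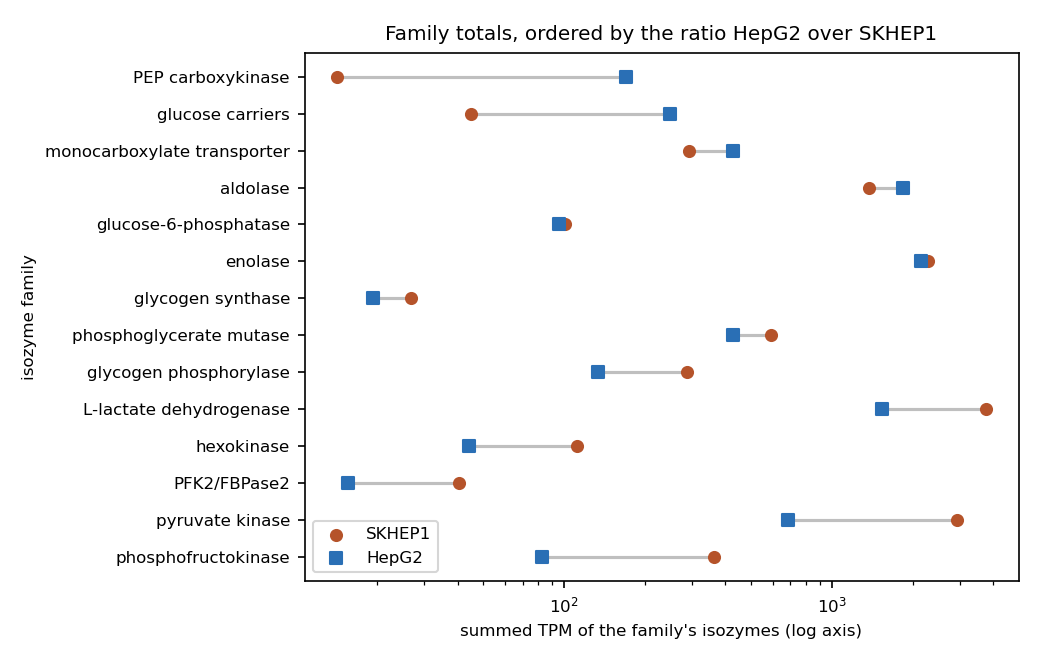
Summed TPM of the isozymes of 14 families (x axis, log scale) in SKHEP1 (circles) and HepG2 (squares), with families on the y axis ordered by their ratio. Carboxykinase (14.2 against 171 TPM) stands at the HepG2 end, phosphofructokinase (361 against 82.4 TPM) at the SKHEP1 end, and glucose-6-phosphatase and enolase in between with nearly equal totals.

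Promoter sequences are shown for 4 genes with a single RefSeq start, 2 higher in SKHEP1 and 2 higher in HepG2, to set beside their levels the number of CG dinucleotides, which are dense in CpG island promoters. They were chosen after the values were seen. Each window runs from 250 bases before the start to 50 after it in RefSeq on build GRCh38.p14, 5′ to 3′ on the gene's strand, with each CG in capitals. The windows are LDHB at chr12:21657793-21658092 on the minus strand, PKM at chr15:72231141-72231440 on the minus strand, SLC2A2 at chr3:171026671-171026970 on the minus strand and GCKR at chr2:27496589-27496888 on the plus strand.
LDHB: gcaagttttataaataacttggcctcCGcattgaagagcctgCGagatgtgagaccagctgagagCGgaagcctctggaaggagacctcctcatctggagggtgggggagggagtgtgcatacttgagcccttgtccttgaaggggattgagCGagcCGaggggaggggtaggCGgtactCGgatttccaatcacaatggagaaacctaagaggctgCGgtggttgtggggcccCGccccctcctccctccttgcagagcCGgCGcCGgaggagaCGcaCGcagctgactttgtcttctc
PKM: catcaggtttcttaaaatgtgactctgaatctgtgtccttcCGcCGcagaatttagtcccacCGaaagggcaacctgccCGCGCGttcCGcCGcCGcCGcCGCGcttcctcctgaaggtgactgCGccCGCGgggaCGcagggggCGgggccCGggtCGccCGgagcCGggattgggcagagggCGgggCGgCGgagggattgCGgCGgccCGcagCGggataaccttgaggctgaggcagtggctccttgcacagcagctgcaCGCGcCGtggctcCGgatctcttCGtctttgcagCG
SLC2A2: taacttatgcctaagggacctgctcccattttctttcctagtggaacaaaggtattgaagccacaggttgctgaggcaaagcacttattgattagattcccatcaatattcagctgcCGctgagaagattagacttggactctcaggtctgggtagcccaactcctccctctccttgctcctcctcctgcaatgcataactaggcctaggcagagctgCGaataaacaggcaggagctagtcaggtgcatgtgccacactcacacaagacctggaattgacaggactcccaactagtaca
GCKR: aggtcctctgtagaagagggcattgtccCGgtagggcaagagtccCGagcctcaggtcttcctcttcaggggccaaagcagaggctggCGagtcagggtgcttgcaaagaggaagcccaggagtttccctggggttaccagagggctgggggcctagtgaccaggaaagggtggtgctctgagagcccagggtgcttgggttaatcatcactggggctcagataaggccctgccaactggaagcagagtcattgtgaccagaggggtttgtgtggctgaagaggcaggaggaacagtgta
A CG reads the same on both strands. PKM held 34 CG and LDHB 14, and 15.6% and 50.3% of all 35116 windows held as many or more. SLC2A2 held 2 and GCKR 3, and 18.2% and 24.5% of windows held as few or fewer, while 3.96% held none. Windows were found for 41 of the 51 genes, and 24 genes had a single start. Among these, the 14 genes within 4-fold held a median of 31 CG (5 to 40), the 4 higher in HepG2 a median of 11 (2 to 23), the 2 higher in SKHEP1 a median of 24, the 4 under 10 counts in both lines a median of 4.5 (4 to 32), and all windows a median of 14. The shown windows of SLC2A2 and GCKR are the lowest of the 4 higher in HepG2, and the others, ALDOC with 19 and PCK2 with 23, lie above the median of all windows. A dinucleotide count is a description of the window, and no binding or methylation was measured here.

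A list of 109 other genes of the pathway was read in the same way. Among them, 99 had at least 10 counts in either line. SKHEP1 exceeded HepG2 by at least 4-fold for 11 (11.1%), HepG2 exceeded SKHEP1 for 23 (23.2%), and 65 lay within 4-fold, beside 16.5% and 13% of all genes. The pentose phosphate pathway, which makes NADPH and ribose from glucose 6-phosphate, had all 8 of its genes within 4-fold, beside 70.5% of all genes. The widest there was H6PD, the enzyme of the endoplasmic reticulum, 3.79-fold higher in HepG2 (3.36 to 4.27). PGLS, the lactonase, was 2.03-fold higher in SKHEP1 (1.79 to 2.31), RPIA, the ribose isomerase, 1.69-fold higher in HepG2 (1.53 to 1.87) and TALDO1, transaldolase, 1.47-fold (1.39 to 1.55).

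**Figure D5:**
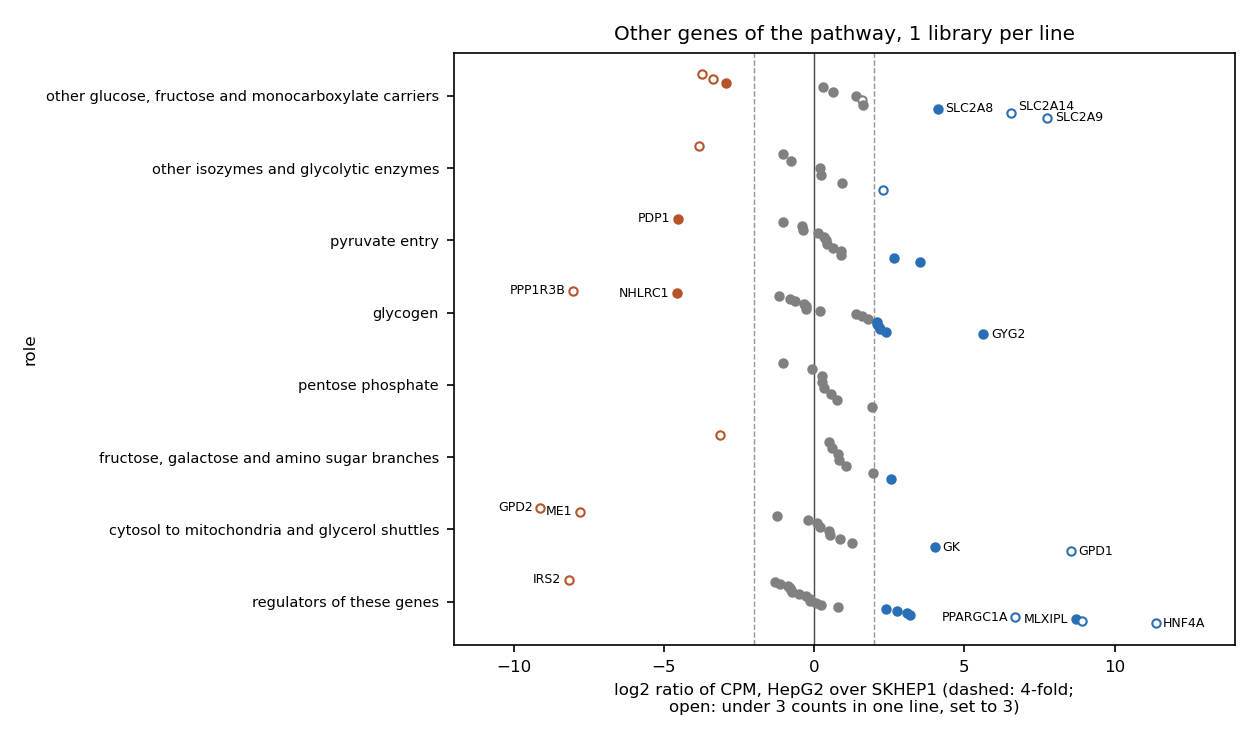
Log2 ratio of CPM, HepG2 over SKHEP1 (x axis), of the 99 other pathway genes compared, grouped by role (y axis), with open symbols where a line had under 3 counts (set to 3) and dashed lines at 4-fold. GPD2 and GPD1 lie at opposite ends of the shuttle row, and HNF4A is the rightmost point.

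The enzymes of the glycerol phosphate shuttle, which passes electrons of cytosolic NADH to mitochondria, differed in opposite directions. GPD2, the mitochondrial enzyme, had 1513 counts in SKHEP1 (29.3 TPM) against none in HepG2, a lead of at least 554-fold for SKHEP1. GPD1, the cytosolic partner, had 0 counts in SKHEP1 and 1229 (57.0 TPM) in HepG2, at least 373-fold higher in HepG2. GPD1L, a relative of GPD1, was present in both lines with 335 and 516 counts, 1.40-fold higher in HepG2 (1.22 to 1.61). GK, glycerol kinase, was 16.3-fold higher in HepG2 (13.6 to 19.7), and ME1, the cytosolic malic enzyme, had 610 and 0 counts, at least 223-fold higher in SKHEP1. With GPD1L, 8 of the 12 shuttle genes (66.7%) were within 4-fold, near the 70.5% of all genes.

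At the entry of pyruvate into mitochondria, 10 of 13 genes compared (76.9%) were within 4-fold, near the 70.5% of all genes. MPC1, a subunit of the mitochondrial pyruvate carrier, had 175 and 2211 counts (17.9 and 204 TPM), 11.5-fold higher in HepG2 (9.86 to 13.5). Its partner MPC2 differed by 1.87-fold (1.69 to 2.08) in the same direction. PDP1, the phosphatase that activates pyruvate dehydrogenase, had 1911 and 90 counts (44.0 and 1.53 TPM), 23.3-fold higher in SKHEP1 (18.9 to 29.1). PDK3, a kinase that inactivates it, had 25 and 173 counts, 6.30-fold higher in HepG2 (4.13 to 10.0), while PDK1 was 2.04-fold higher in SKHEP1 (1.81 to 2.30).

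Of 18 other glycogen genes compared, 2 (11.1%) passed 4-fold towards SKHEP1, beside 16.5% of all genes, and 6 (33.3%) towards HepG2, beside 13%, while 10 lay within 4-fold. GYG2, a glycogenin that primes the polymer, had 23 and 1249 counts (0.98 and 36.1 TPM), 49.5-fold higher in HepG2 (32.8 to 78.3). PPP1R3B, a subunit that brings protein phosphatase to glycogen, had 717 counts (10.5 TPM) in SKHEP1 and 2 in HepG2, 394-fold higher in SKHEP1 (109 to 3256). Another subunit of this kind, PPP1R3E, was 5.27-fold higher in HepG2 (4.05 to 6.95). NHLRC1, the ubiquitin ligase malin, had 196 and 9 counts, 23.9-fold higher in SKHEP1 (12.3 to 53.1).

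Of 11 other carriers compared, 3 passed 4-fold towards each line, beside 16.5% of all genes towards SKHEP1 and 13% towards HepG2. SLC2A9, a urate carrier of the glucose carrier family, had 1 count in SKHEP1 and 714 (34.5 TPM) in HepG2, 650-fold higher in HepG2 (116 to 25722). SLC2A8 had 59 and 1121 counts, 17.3-fold higher in HepG2 (13.3 to 22.9). SLC2A14, listed above as the copy of SLC2A3, was at least 93.8-fold higher in HepG2 with the same uncertainty. SLC16A7, the lactate and pyruvate carrier MCT2, went the other way with 539 and 78 counts, 7.59-fold higher in SKHEP1 (5.97 to 9.75). SLC2A12, the carrier GLUT12, had 28 and 0 counts, at least 10.2-fold higher in SKHEP1, and EMB, a partner protein of the lactate carriers, had 36 and 0, at least 13.2-fold. SLC16A8 had 0 in both lines. With only the other listed SLC2A genes added to the glucose carrier family, SLC2A1 still led, at 56.2% of the sum in SKHEP1 and 37.1% in HepG2.

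Isozymes outside the set were mostly scarce. LDHC, the testis lactate dehydrogenase, had 39 and 0 counts, at least 14.3-fold higher in SKHEP1, and LDHAL6B had 1 and 0. G6PC2, GAPDHS and PGK2 were at 0 in both lines. BPGM, which makes and removes 2,3-bisphosphoglycerate, had 276 and 149 counts, 2.03-fold higher in SKHEP1 (1.66 to 2.50), and PGM2 had 1224 and 1067. MINPP1, an inositol polyphosphate phosphatase, was 1.90-fold higher in HepG2 (1.73 to 2.08), TIGAR, a fructose-2,6-bisphosphatase induced by p53, 1.69-fold higher in SKHEP1 (1.53 to 1.87) and ADPGK, a kinase of glucose that uses ADP, 1.18-fold higher in HepG2 (1.10 to 1.27). In the fructose branch after KHK, TKFC, the triokinase, had 513 and 3300 counts (32.1 and 235 TPM), 5.86-fold higher in HepG2 (5.34 to 6.44). SORD, which makes fructose from sorbitol, was 3.90-fold higher in HepG2 (3.63 to 4.19). GALT, an enzyme of galactose breakdown, was 2.08-fold higher in HepG2 (1.72 to 2.52).

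Of 22 regulators of these genes, 8 (36.4%) passed 4-fold towards HepG2, beside 13% of all genes, and 1 (4.55%) towards SKHEP1, beside 16.5%, and 13 did not pass it. HNF4A, a hepatocyte nuclear receptor, had 0 counts in SKHEP1 and 8689 (153 TPM) in HepG2, at least 2638-fold higher in HepG2. MLXIPL, the carbohydrate-responsive factor ChREBP known to act on PKLR, had 3 and 1392 counts (0.08 and 49.3 TPM), 423-fold higher in HepG2 (144 to 2052). IRS2, an adaptor of the insulin receptor, had 782 counts in SKHEP1 against none in HepG2, a lead of at least 286-fold for SKHEP1. HIF1A, a factor known to raise glycolytic genes in low oxygen, had 6806 and 6731 counts, 1.11-fold higher in SKHEP1 (1.07 to 1.15). MYC, another factor known to raise them, had 2310 and 2647 counts, a ratio of 1.04 (0.99 to 1.10). Binding of these factors was not measured, and their part in the isozyme differences was not tested.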

How the data were processed

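RNA-seq tables of SKHEP1 and HepG2 were used, 1 library each, grouped by the cell line labels. Per the submitters' processing notes, cutadapt, STAR, RSEM and DESeq2 were used with build hg19. The sources used here do not give versions, the annotation or the strand setting of RSEM, and reads of overlapping or antisense genes may have been mixed. Per the file headers, the deposited tables hold RSEM expected counts, TPM, FPKM and gene lengths. A whole number stood in the count column for 95.2% of listed genes in SKHEP1 and 95.0% in HepG2.

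Counts were rounded and scaled to CPM of TMM library sizes with edgeR 4.0.16 (R 4.3.3). The TMM factors were 1.01 and 0.99. A gene entered the comparison with 10 or more expected counts in 1 of the libraries, a ratio of 4 was the limit for a call, and a count under 3 was set to 3 per library for calls. A ratio with 1 to 3 counts in a line is the raw ratio. Intervals at 95% are exact Poisson and conditional Clopper-Pearson intervals. Isozyme shares are of the deposited TPM, with exact binomial intervals carried to that scale, and totals have intervals by the delta method. The comparison was run on simulated Poisson counts with 200 genes changed 8-fold. Those counts held no spread between cultures or libraries, so the run checks the calculation only. Calculations ran in Python 3.11.15 (scipy 1.17.1, pandas 2.3.3, numpy 2.4.6).

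The genes and lists were chosen with earlier results of these data known. All 51 genes are accounted for. From the other pathway genes, up to 4 per role with the largest ratio and at least 100 counts were named, with the other isozymes of a family; some genes this rule takes are not reported here. MPC2, GPD1L, SLC2A12, EMB, HIF1A, MYC and the promoters were chosen after their values were seen. TKFC and TIGAR stand under older symbols in the tables. Alternatives were total counts, DESeq2 1.42.0 size factors, TPM, FPKM, unrounded counts, a prior count of 2, thinning of the deeper library, minimums of 1 and of 50 counts, 2-fold and 8-fold limits, the interval bound, the mean, and other bases for the shares.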

Additional observations from a re-analysis of the deposited data

How the results depend on the processing

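The number of genes of the set at least 4-fold higher in SKHEP1 was 5 to 9, and in HepG2 10 to 18, over all alternatives run, against 6 and 14. With TPM or FPKM values LDHD and PC fell under 4-fold and SLC2A10 passed it, so that 19 genes were called in place of 20. No gene called changed direction under the 7 scaling, unit and depth alternatives; PFKFB2, G6PC3 and PYGB, each with a ratio near 1, did under some. Among other pathway genes, those higher in SKHEP1 numbered 7 at a minimum of 50 counts and 18 at a limit of 2-fold, against 11, and those higher in HepG2 numbered 13 at a limit of 8-fold, against 23. Over all genes, a limit of 2-fold gave 3859 towards SKHEP1 and 3614 towards HepG2, and 8-fold gave 1258 towards HepG2. These limits change the counts by their construction. The median log2 ratio of all genes was 0.013 with DESeq2 size factors, against -0.03. The number of families whose leading isozyme differed was 4, and 3 by expected counts, where HK2 leads in both lines. The share of LDHB in SKHEP1 was 32.7% by expected counts and 47.1% per averaged effective length, against 39.1%. The averaged length of LDHB joins 1104 bases in SKHEP1 with 476 in HepG2, where the gene had 1 count. The value of 47.1% is therefore not a sound estimate for SKHEP1.

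No paired analysis was possible because each line has 1 library and no result comes from a test. Leaving out a replicate was not possible for the same reason. Depth limits the ratios of genes at 0 or few counts, such as LDHB, SLC2A2 and SLC2A4, to a lower bound or a wide interval. Spread between cultures of a line was not measured.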
